A study of Mus musculus with 6 samples.

Results

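Complement is a set of plasma and cell-surface proteins that mark particles for uptake, call in leukocytes and form pores in membranes, and macrophages make several of them themselves. The 8 genes followed here were chosen by name. They were the 3 chains of the recognition protein C1q (C1qa, C1qb and C1qc), the central component C3, factor B and properdin of the alternative pathway (Cfb and Cfp), and the receptors for the fragments C3a and C5a (C3ar1 and C5ar1). Each was taken through the non-control array probes whose RefSeq accession belongs to it, which gave 9 probes for these 8 genes among 26761 named probes of 20283 genes. All 8 genes entered the test, which asked that a probe be well above background on both arrays of a group, and Cfb met this with WGP and not in medium.

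The cells were bone-marrow-derived macrophages of C57BL/6 mice 6 to 8 weeks old, labelled as polarized M2 (alternatively activated), and kept for 6 h in complete DMEM without WGP (the medium group) or with WGP. WGP stands for whole glucan particles, which are yeast cell walls rich in beta-glucan that macrophages bind through C-type lectin receptors and engulf. The labels name neither the agent that polarized the cells nor the dose of WGP, and nothing in them says that replicates were separate cultures or animals. The p-values therefore reflect the spread between these samples alone, and this spread may be technical. RNA was hybridised to 1-colour (Cy3) Agilent arrays. Each group has 3 deposited files, but those of replicate 3 repeat the spot signals of replicate 1 at all 44397 spots. Their processed signal is the mean of replicates 1 and 2 in medium (to within 0.695%) and 1.3 times replicate 1 with WGP (to within 0.488%). Replicates 1 and 2 are therefore the n = 2 independent arrays of each group, and their number limits the precision of every value. Replicates 1 and 2 are also slides 1 and 2, with the medium array at position 1 of the slide and the WGP array at position 3, so position and treatment cannot be told apart.

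A level is the log2 processed signal of a probe, taken relative to the 75th percentile of its array, and a change is the level with WGP minus the level in medium. Probes bind their targets with different strength, so levels of different genes are not compared. The medium arrays had 75th percentiles of 85.8 and 68.6, the WGP arrays of 59.2 and 56.1, and 44.97% to 50.65% of probes were well above background. Of the 10 macrophage markers on a list used here, 9 had a named probe and were well above background on all 4 arrays, with summed levels (log2 of the summed scaled signals) of 10.73 to 10.8 in medium and 10.9 to 11.1 with WGP. Such sums follow their brightest probes, here Csf1r (mean level 10.04 in medium and 10.5 with WGP), and do not measure amounts of cells. The sum and the single markers differ in sign, since the median change of the 9 was -0.37, with 1 higher and 4 lower. The test behind these calls, used below, called 40.5% of all genes tested. Of the 6 markers of alternative activation, Arg1 and Retnla stayed near background on all 4 arrays. The other 4 were above it on both medium arrays, and the summed level of the 6 went from 4.37 to 4.64 in medium to 2.64 to 2.71 with WGP.

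The comparison asked how the members' transcripts changed during 6 h with WGP. C3 rose strongly, and Cfb, below the range of measurement in medium, was higher with WGP. C1qa and C1qc fell by 26.6% and 24.4%, and C1qb, Cfp, C3ar1 and C5ar1 did not pass the test. Thus 4 of 8 members changed at an adjusted p under 0.05 in limma's test, 2 higher and 2 lower, against 40.5% of all 10947 genes tested (23.2% higher and 17.4% lower). Of the genes called, 57.2% were higher, a share that was 72.7% with median scaling and 18.9% with no scaling. The median change of the members was -0.083, beside 0.028 over all genes tested. The groups' arrays did not overlap for 7 of the 8 members, and this was so for 75.1% of all genes. Both of the members' counts are near these shares of all genes. Cfb is in both counts, though it entered only through the WGP arrays. With only probes well above background on every array, 3 of 7 members changed (1 higher and 2 lower), beside 4400 of 9881 genes.

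**Figure D1:**
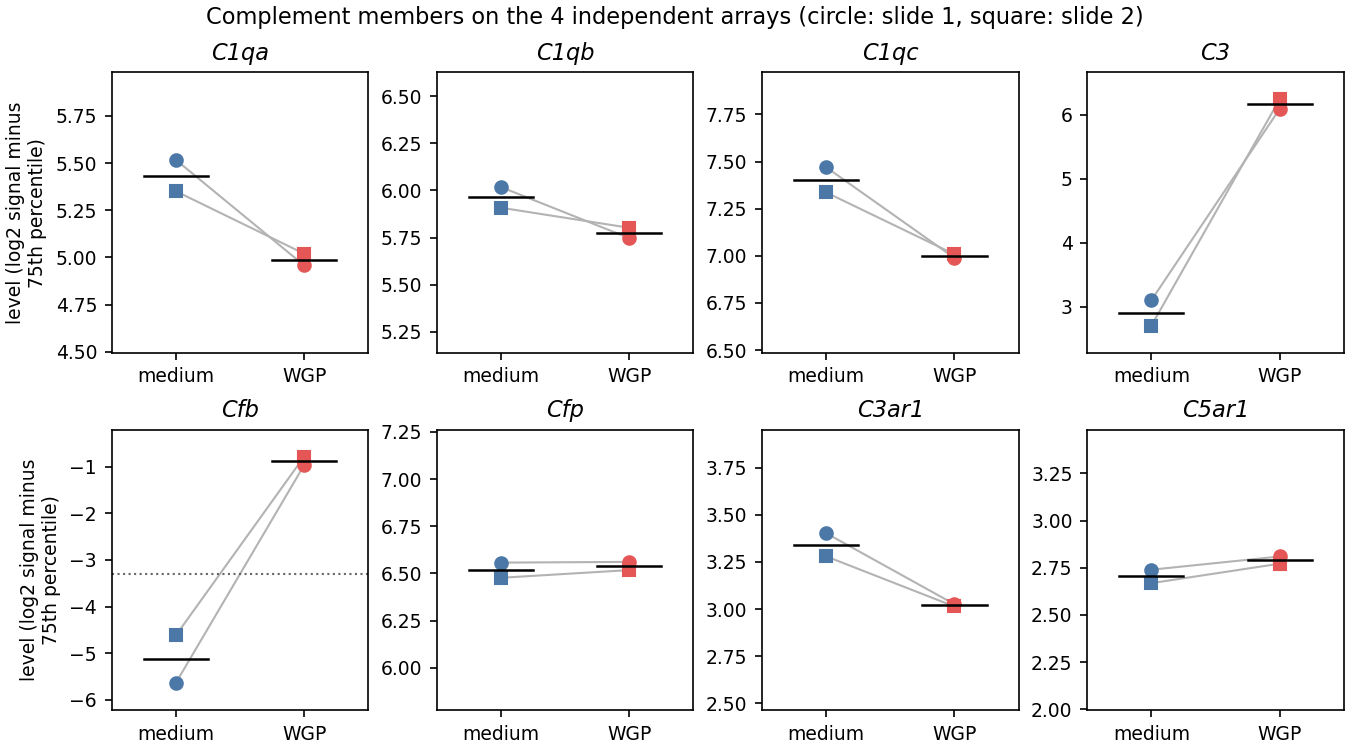
Levels of the 8 complement members (y axis, log2 signal minus the array's 75th percentile, 1 scale per gene) in medium and with WGP. Circles are slide 1, squares slide 2, grey lines join the arrays of a slide, black bars are group means, and the dotted line for Cfb is the lower limit of measurement used for medium. C3 and Cfb are higher with WGP on both slides, whereas Cfp and C5ar1 lie close to level.

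C3 is the component on which all routes of activation meet, and its cleavage yields the opsonin C3b and the signalling peptide C3a. Its main probe had a processed signal of 738 and 448 on the medium arrays and of 4041 and 4248 on the WGP arrays. As levels these were 3.10 and 2.71 in medium and 6.093 and 6.24 with WGP. Both WGP arrays thus lay far above both medium arrays, and the medium arrays lay further apart (SD 0.28) than the WGP arrays (SD 0.11). The rise was 9.60-fold, or 3.26 ± 0.17 on the log2 scale (SE), with a 95% interval of 6.92 to 13.3-fold and an adjusted p of 0.00176 in limma. It was 7.94-fold on slide 1 and 11.6-fold on slide 2, and 99.4% of the genes tested had a lower signed change.

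The main C3 probe is printed in 10 spots on every array, which shows how little the measurement within an array varied. Their levels ranged from 3.03 to 3.19 and from 2.57 to 2.84 on the medium arrays. On the WGP arrays they ranged from 6.04 to 6.13 and from 6.14 to 6.32, after 2, 1 and 1 outlier spots had been left out on WGP array 1, WGP array 2 and medium array 2. No spot of one group reached the range of the other. Another C3 probe, with 1 spot, stood at 1.76 and 1.63 in medium and 3.78 and 3.93 with WGP. It rose by 2.16 ± 0.11 (SE, adjusted p = 0.00186 in limma over all 13920 named probes kept, of which 40% were called), so the 2 probes gave one direction and different sizes. Over 20 alternative settings the change of C3 stayed between 2.71 and 3.46 and passed the test in all of them.

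The window around the annotated start of C3 is shown because this member had the largest rise among those measured on every array, and those of C1qb and C1qc because they can be set against it. The windows are from RefSeq (build GRCm38.p6), 250 bases before to 50 after the start, 5′ to 3′ on the minus strand that carries all 3 genes. They are chr17:57228087-57228386 for C3, chr4:136886151-136886450 for C1qb and chr4:136892865-136893164 for C1qc. Capitals mark matches, on either strand, to motifs of transcription factors active in macrophages. The motifs searched were C/EBP (TTNNGNAA), AP-1 (TGANTCA), PU.1 (GAGGAA), a Maf half-site (TGCTGA), the interferon-stimulated response element ISRE (by name) and the NF-kappaB consensus (by name). The table held windows for 6 of the 8 members, not for C1qa and Cfb.
C3: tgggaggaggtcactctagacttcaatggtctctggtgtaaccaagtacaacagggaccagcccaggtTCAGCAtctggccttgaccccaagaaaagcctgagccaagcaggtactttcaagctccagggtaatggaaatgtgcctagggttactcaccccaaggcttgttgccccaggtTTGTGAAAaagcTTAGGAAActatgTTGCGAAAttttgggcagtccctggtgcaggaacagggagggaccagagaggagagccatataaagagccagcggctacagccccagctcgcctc
C1qb: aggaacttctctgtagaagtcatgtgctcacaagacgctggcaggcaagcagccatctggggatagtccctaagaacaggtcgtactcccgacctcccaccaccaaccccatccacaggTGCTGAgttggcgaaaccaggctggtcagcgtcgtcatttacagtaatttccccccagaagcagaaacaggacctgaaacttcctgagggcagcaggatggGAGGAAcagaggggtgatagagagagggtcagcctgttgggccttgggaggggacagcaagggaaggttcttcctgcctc
C1qc: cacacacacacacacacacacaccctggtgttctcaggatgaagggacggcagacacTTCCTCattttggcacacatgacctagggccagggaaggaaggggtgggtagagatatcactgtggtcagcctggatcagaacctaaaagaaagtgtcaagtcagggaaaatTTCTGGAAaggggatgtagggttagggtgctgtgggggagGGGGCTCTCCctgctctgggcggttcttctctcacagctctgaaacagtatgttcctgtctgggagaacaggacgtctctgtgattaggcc

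The C3 window held 3 C/EBP matches within 33 bases, from 70 to 38 bases before the start (TTGTGAAA, TTAGGAAA and TTGCGAAA, the last on both strands). At least 1 C/EBP match occurred in 40.7% of all 32841 windows of this length, and at least 3 in 3.6%. C3 had no NF-kappaB match in this window, and C1qc had 1 (GGGGCTCTCC, 41 to 32 bases before the start), as had 4.51% of windows. Of the 3 windows shown, those of C1qb and C1qc held a PU.1 match, found in 28.3% of all windows, and those of C1qb and C3 a Maf half-site, found in 19.5%. C1qc also had 1 C/EBP match (TTCTGGAA, 81 to 74 bases before the start). AP-1 (7.81% of windows) and ISRE (3.44%) matched in none of the 3 windows shown, and an AP-1 match lay 22 to 16 bases before the start of C3ar1. The Maf half-site and the AP-1 motif can share letters, and in the windows shown no match to one motif overlapped a match to another. A match is a description of letters only.

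Factor B is the serine protease that, bound to C3b, forms the C3 convertase of the alternative pathway. Its transcript Cfb was not well above background on either medium array and was above it on both WGP arrays. The median spot signal was 35.0 on both medium arrays, over a local background of 25.5 and 29.0. With WGP it was 64.0 and 66.0, over 28.0 and 23.0. As levels these were -5.64 and -4.62 in medium and -0.97 and -0.78 with WGP. The groups did not overlap, but the medium values are below the range of measurement. With the dimmest probe still well above background taken as the lower limit on each medium array, Cfb was at least 5.35-fold higher with WGP. Probes above this limit can still fail, such as Masp2 at -3.54 and Flt3 at -3.37 on medium array 1 (limit -3.55). The bound thus holds for this limit only, and a higher limit would give a smaller one. With normexp, another background correction, the Cfb change was 0.83 with 75th percentile scaling and 0.73 with quantile normalization (log2). The adjusted p of 0.00384 in limma belongs to the measured levels, which in medium are below that limit, and is no test of the bound. Cfb also entered the test only through the WGP arrays, where it is high. For a signal this dim only the bound is given as a fold.

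Properdin, which binds and stabilizes that convertase, is encoded by Cfp on the X chromosome. Its levels were 6.56 and 6.48 in medium and 6.56 and 6.52 with WGP, so that the groups overlapped, the only member for which they did. The change was 0.022 ± 0.096 (SE, adjusted p = 0.866 in limma), with a 95% interval of 0.85 to 1.22-fold. This interval leaves out a rise of the size of C3's. Relative to Cfp on the same array, which does not depend on how arrays are scaled to each other, C3 rose 9.45-fold (2.99 and 3.50 on the log2 scale on slides 1 and 2). The sign of the Cfp change itself turned with some other scalings or background corrections and without medium replicate 2, never with a call.

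**Figure D2:**
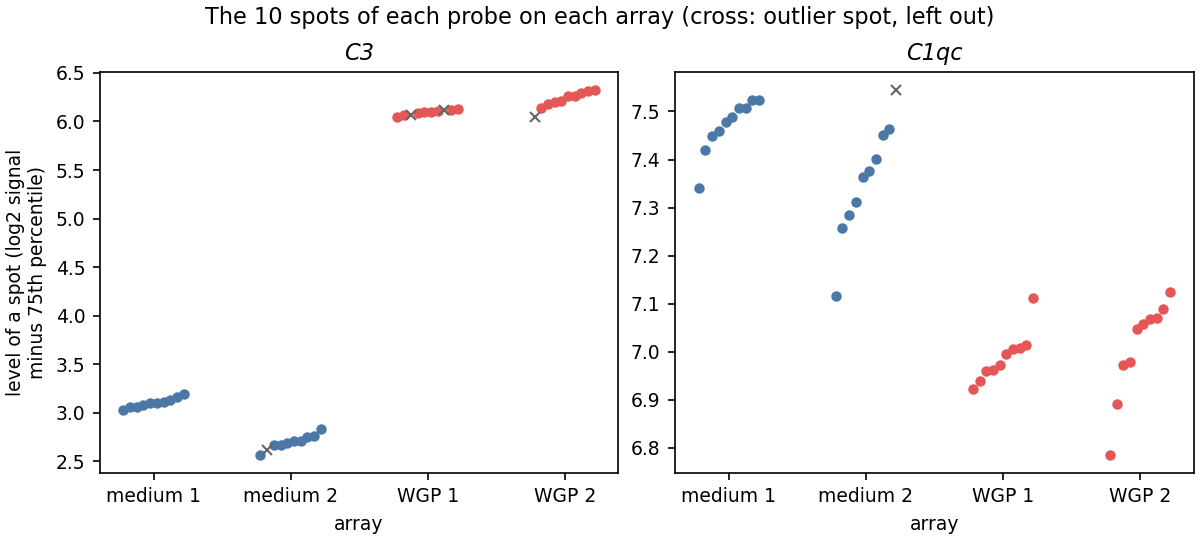
Levels of the 10 spots (y axis, log2 signal minus the array's 75th percentile) of the C3 and C1qc probes on each array (x axis), sorted by level within an array, with outlier spots as crosses. The C3 spots kept reach 3.19 at most in medium and start at 6.04 with WGP, while the highest C1qc spot with WGP (7.125) reached the lowest one in medium (7.117).

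C1q is the molecule that starts the classical pathway by binding antibody complexes, apoptotic cells and microbes. It is built of A, B and C chains in equal number, and the genes of the chains lie next to each other on chromosome 4. C1qa, the A chain, stood at 5.52 and 5.35 in medium and at 4.96 and 5.020 with WGP. C1qc, the C chain, stood at 7.47 and 7.34 in medium and at 6.99 and 7.0084 with WGP. C1qb, the B chain, stood at 6.018 and 5.91 in medium and at 5.75 and 5.80 with WGP. For all 3 chains both WGP arrays were below both medium arrays, and in each chain the WGP arrays lay closer together than the medium arrays.

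C1qa was 1.36-fold lower with WGP (-0.45 ± 0.11, SE, adjusted p = 0.0385 in limma), and C1qc was 1.32-fold lower (-0.40 ± 0.10, adjusted p = 0.0410). C1qb was 1.14-fold lower (-0.19 ± 0.10, adjusted p = 0.203), with a 95% interval of 0.73 to 1.061-fold, and did not pass. It passed in 4 of 20 alternative settings, with quantile normalization (-0.36, adjusted p = 0.0470), with both normexp settings (-0.37, adjusted p = 0.0156 and 0.00678) and with every deposited file as its own sample (adjusted p = 0.00972). In the last of these copies count as replicates. The changes were more negative on slide 1 (-0.56, -0.27 and -0.48 for C1qa, C1qb and C1qc) than on slide 2 (-0.33, -0.11 and -0.33). The C1qc probe is printed in 10 spots as well, and their levels had an SD of 0.053 to 0.11 within an array, against a change of 0.40 between groups. The spots ranged from 7.117 to 7.52 in medium and from 6.79 to 7.125 with WGP, so that the ranges just met.

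The calls of C1qa and C1qc are close to the threshold and did not last in 7 and 8 of 20 alternative settings. With the slide as a block (37.3% of all genes called) their adjusted p was 0.064 and 0.0669 in limma, and with any 1 array left out it lay between 0.0585 and 0.170. Scaling by array medians, under which the median over all genes went from 0.028 to 0.19, gave -0.28 (adjusted p = 0.164) and -0.24 (adjusted p = 0.204). The sign was negative for all 3 chains in every setting tried. Spike-in RNAs offer a scale that does not use the cells' transcripts. The 7 E1A spike-in controls above background on all arrays changed by -0.025 on average (SD 0.13 over controls), and scaling to them gave -0.42 for C1qa (adjusted p = 0.0443) and -0.38 for C1qc (adjusted p = 0.0507).

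How the chains moved against each other can be read within arrays, without regard to scaling. The ratio of C1qa to C1qc changed by -0.079 and -0.0033 on slides 1 and 2 on the log2 scale. The ratio of C1qb to C1qc rose by 0.21 and 0.22, and that of C1qa to C1qb fell by 0.29 and 0.23. The B chain probe therefore had the smaller change on both slides. These pairs were chosen after the values were seen, 7 in all, and with 2 arrays against 2 an exact two-sided permutation test cannot give a p below 0.333, so no test is given. Each chain has 1 probe here, and a difference between chains cannot be told apart from one between probes.

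C3ar1 encodes the receptor for C3a, a G-protein-coupled receptor of myeloid cells. Its levels were 3.40 and 3.28 in medium and 3.025 and 3.013 with WGP, with no overlap. The change of -0.32 ± 0.10 (SE) had a 95% interval of 0.66 to 0.97-fold and an adjusted p of 0.0680 in limma, so it did not pass. It was negative in all 20 alternative settings and passed the test in 6 of them, among them quantile normalization (-0.51, adjusted p = 0.0203) and an intensity trend in the variance (adjusted p = 0.0203). The rest were both normexp settings, no scaling, and every deposited file as its own sample. In the last of these copies count as replicates, and with no scaling the lower signal of the WGP arrays enters the change. Within arrays, C3 rose 12.0-fold relative to C3ar1.

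C5ar1 encodes the main receptor for C5a, the strongest chemoattractant peptide of the cascade. It stood at 2.74 and 2.67 in medium and at 2.81 and 2.77 with WGP. The WGP arrays were above the medium arrays by a margin smaller than that between the 2 medium arrays. The change of 0.087 ± 0.095 (SE, adjusted p = 0.506 in limma) had a 95% interval of 0.89 to 1.27-fold. The ratio of C3ar1 to C5ar1 within arrays changed by -0.45 and -0.37 on slides 1 and 2. C5ar2, the other C5a receptor, which does not couple to G proteins, fell 2.26-fold, from 3.23 and 3.48 to 2.10 and 2.26 (-1.17 ± 0.14, adjusted p = 0.00693). It stayed called in all 20 alternative settings, and its other kept probe had the same sign.

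**Figure D3:**
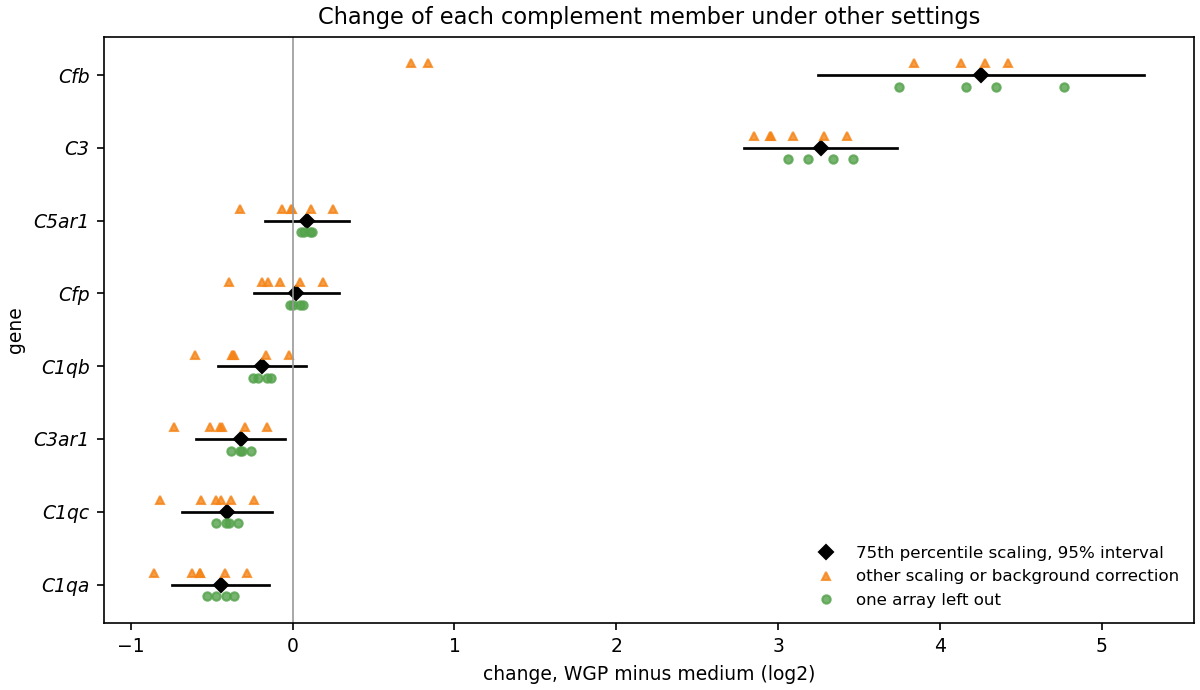
Change of each member with WGP (x axis, log2; genes on the y axis, ordered by measured change). Diamonds with bars are the values of the report with their 95% intervals, triangles other scalings and background corrections, circles fits with 1 array left out. Cfb is drawn at its measured difference, and since it has only a bound its place above C3 is not a rank. From C3 downwards the order is C3, C5ar1, Cfp, C1qb, C3ar1, C1qc and C1qa. Every symbol of C3 and Cfb lies well above 0, and the 2 low triangles of Cfb are the settings with normexp.

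Cfb, as a bound, and C3 therefore lay above the other 6 members, whose changes were within -0.45 to 0.087. The SEs of these 6 changes were 0.095 to 0.11, and the 95% intervals of neighbours in the order overlapped. Differences between these 6 members were not tested, so their order is that of the measured changes only. The processed signal without scaling was lower with WGP for all 6 (from -0.33 for C5ar1 to -0.86 for C1qa), and the WGP arrays also had the lower 75th percentiles. The spike-in controls changed by -0.025 on average relative to those percentiles, so without scaling their mean signal was lower with WGP too. In RNA of whole cultures, fewer cells of a type and less RNA per cell cannot be told apart.

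The other genes of the pathway were taken from a list of 54, of which 52 had a named probe and 22 passed the filter on dim probes. Of these 22, 4 rose, 6 fell and 12 did not pass, which is 45.5% called against 40.5% of all genes tested, with a median change of -0.32 beside 0.028. The split was 5 higher and 4 lower with median scaling, and 1 and 11 with no scaling. The falls include Mbl2 and C1rb, which entered only through medium. With only probes well above background on every array, 8 of 20 were called, 4 higher and 4 lower, beside 4400 of 9881 genes. Most of the 30 genes with a probe but no test (27) did not rise well above background on a single array. They include the alternative pathway protease Cfd, the classical proteases C1s1 and C1s2, the C3b-cleaving protease Cfi, and most genes of the terminal pore, such as Hc (C5) and C9.

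Among the genes that start the cascade, 5 of 13 were tested and 2 were called lower, as were 17.4% of all genes tested. With the lower limit set as for Cfb, but on the WGP arrays, Mbl2, a mannose-binding lectin, was at least 2.36-fold lower with WGP. On the same limit C1rb, a protease of the C1 complex, was at least 2.24-fold lower. On WGP array 2 the C1rb level of -3.57 lay above the limit of -3.62 and was used in its place. C1s2 failed there at -3.09, further above the limit, so both bounds hold for this limit only. Mbl2 and C1rb entered the test only through medium and were not well above background on either WGP array. Their adjusted p in limma (0.0128 and 0.00303) is therefore that of measured levels and no test of the bounds. With normexp and 75th percentile scaling the log2 changes were -0.13 for Mbl2 and -0.042 for C1rb. With normexp and quantile normalization they were -0.28 and -0.16, so in both settings the falls were smaller than the bounds. Both calls ended with normexp (adjusted p = 0.101 to 0.713 in limma), and that of Mbl2 also with no filter (adjusted p = 0.0561). The medium arrays of Mbl2 stood at -2.76 and -1.44, and its measured change of -3.01 was -3.67 without medium replicate 1 and -2.35 without medium replicate 2. C1ra, a near-identical copy of C1rb, did not pass (-0.19 ± 0.16, adjusted p = 0.377), and probes of the pair may share targets. C2 and C4b, whose products form the classical C3 convertase, did not pass either (0.27 ± 0.22 and 0.38 ± 0.16). The pore subunit C8g fell 1.301-fold (adjusted p = 0.0490), a call that ended in 10 of 20 alternative settings. With the mean of its 2 probes in place of the brighter one, the change went from -0.38 to -1.06 (adjusted p = 0.0148), so its size depends on the probe.

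Of the regulators, which protect host cells from complement, 5 of 18 were tested and 1 rose, as did 23.2% of all genes tested. This was Cr1l, known as Crry, the rodent membrane regulator that disables C3 convertases. Its levels were 3.022 and 2.89 in medium and 3.602 and 3.50 with WGP, a 1.51-fold rise (adjusted p = 0.0183 in limma) that was lost in 5 of 20 alternative settings, without any of 3 of the arrays among them (adjusted p = 0.0634 to 0.0953). Cd59a, which blocks the pore (-0.52 ± 0.18), Cfhr2 (-0.42 ± 0.15) and clusterin, Clu (-0.26 ± 0.13), had negative changes that did not pass.

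The receptors gave calls in both directions, 3 up and 3 down of 9 tested, where 23.2% and 17.4% of all genes tested were called. Itgax, the alpha chain of complement receptor 4, rose 2.54-fold, from -0.27 and -0.11 to 1.11 and 1.201 (adjusted p = 0.00344 in limma). Itgb2, the beta chain it shares with complement receptor 3, rose 1.62-fold (adjusted p = 0.00915), and Itgam, the alpha chain of receptor 3, did not pass (-0.37 ± 0.13, adjusted p = 0.0911). The Itgb2 call was lost in 4 of 20 alternative settings, with no filter, without either WGP array and with no scaling (adjusted p = 0.0526 to 0.436). Calr, the chaperone calreticulin that also binds C1q, rose 1.80-fold (adjusted p = 0.00713). With no filter and with no scaling it did not pass (adjusted p = 0.0512 and 0.215). Besides C5ar2, Cd93, a surface protein once described as a C1q receptor, fell 1.77-fold (adjusted p = 0.0117) and the collagen and C1q binding inhibitory receptor Lair1 fell 1.71-fold (adjusted p = 0.0227). The Cd93 call was lost in the fits with no filter and without WGP replicate 2 (adjusted p = 0.0663 and 0.0562). That of Lair1 was lost in 5 settings, with median scaling, with no filter and without medium replicate 2 or either WGP array (adjusted p = 0.0606 to 0.0990). Vsig4, the C3b receptor of tissue macrophages, was well above background on 1 medium array and on neither WGP array.

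**Figure D4:**
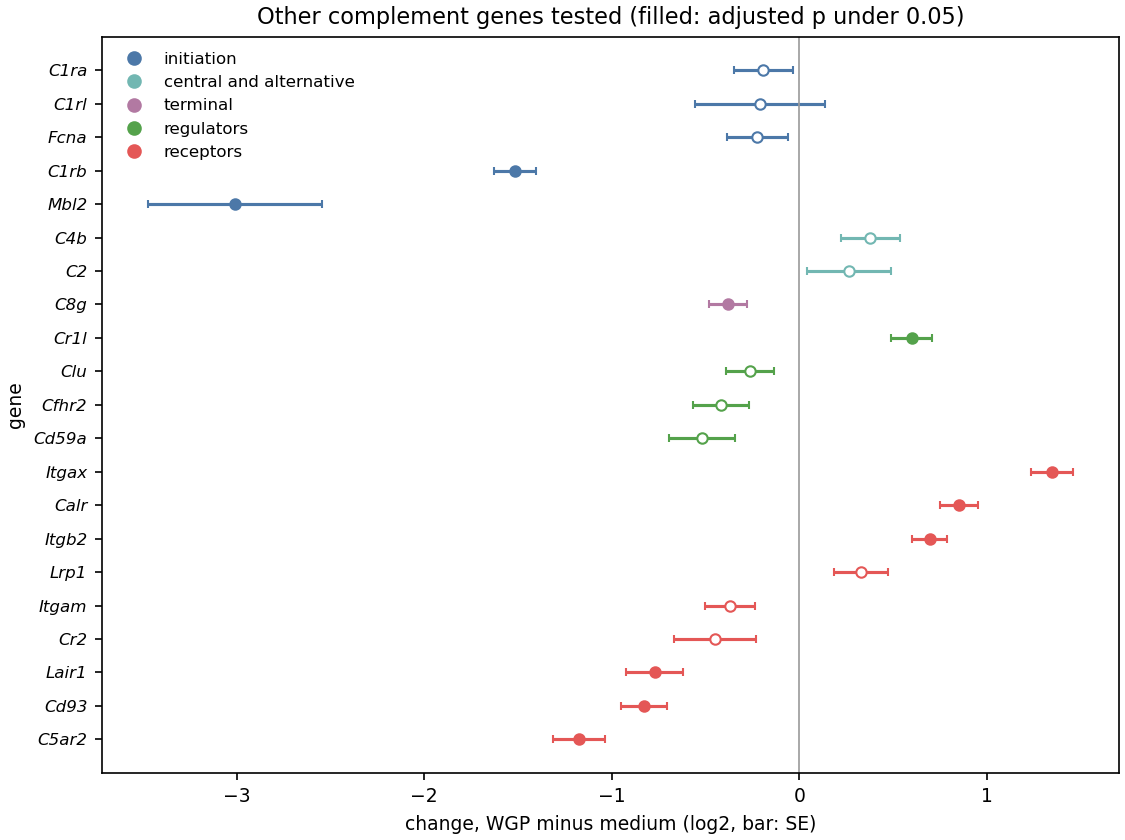
Change with WGP (x axis, log2, bars are SE) of the other complement genes tested (y axis, 1 of the 22 not drawn), coloured by role, with filled points for an adjusted p under 0.05. Itgax has the largest rise (1.35), and Mbl2 and C1rb, which have only a lower bound on their fall, lie farthest to the left.

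C3 and C1qa, the members with the largest rise and fall among those measured on every array, served to look for genes of like pattern, by Euclidean distance over the 4 arrays between levels centred per gene, among 9873 genes well above background on all arrays. Nearest to C3 were Nfkbie, an inhibitor of NF-kappaB (distance 0.072, 10.1-fold higher with WGP), the adaptor Sh2b2 (0.20, 9.18-fold) and the SMAD corepressor Skil (0.22, 8.56-fold). Among the 3 nearest to C1qa were the tankyrase gene Tnks (0.021, 1.36-fold lower) and Prxl2b (0.039, 1.39-fold lower). In all these neighbours, as in C3 and C1qa themselves, the medium array of slide 1 was higher than that of slide 2. With 4 arrays, likeness means little more than a change of the same size.

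Markers of cell types that also make complement were read on the same arrays. Hepatocytes are the main source of plasma C3 and factor B, and their markers Alb, Apoa1 and Ttr stayed near background on all 4 arrays, while Serpina1a was above it on all 4 (summed level of the 4 genes -0.88 to -0.42 in medium and -1.50 to -1.26 with WGP). Fibroblasts make C3 too. Of 6 fibroblast markers 3 were above background on all arrays, and Lum and Pdgfra on none. Col3a1 was above it on both medium arrays and neither WGP array, and at least 1.62-fold lower with the limit used for Mbl2. The summed level of the 6 was 3.39 to 3.91 in medium and 3.52 to 3.595 with WGP. Neutrophils store properdin. Of 7 neutrophil markers with a probe 4 were above background on all arrays, and 0 of these 4 passed the test (summed level 4.26 to 4.57 and 4.29 to 4.33). The changes of the 4 ran from -0.91 for S100a9 to 0.63 for Camp. Of the macrophage markers, 1 rose (Cd14) and 4 fell (Mertk, Fcgr1, Aif1 and Lyz2) beside the falls of C1qa and C1qc, and their part in these was not tested.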

How the data were processed

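The data are 1-colour Agilent arrays of mouse macrophages, 3 deposited files in medium and 3 with WGP, grouped by the labels. The submitters' processing notes name Feature Extraction 10.7.3 as the software that read the scans. The processed signal deposited by the authors is an intensity after background subtraction, with no normalization between arrays, and flags per spot come with it. It is not the median spot signal less the local background alone. C1qb on medium array 1 had a processed signal of 5560 from a median of 4093 over a background of 28. A table of log2 values, also deposited by the authors, matched the scanner values after centring each probe (correlation 1.00 over 39394 probes, largest difference 0.0107). Its column medians were -0.015, 0.16 and 0.10 for medium replicates 1 to 3 and 0.10, 0.13 and 0.10 with WGP. The baseline of its centring is unknown, and it was used only as an alternative.

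The 1377 control spots and, on each array, 118 to 183 outlier spots were omitted, and saturation was seen at 0 spots. Log2 signals were scaled by subtracting the 75th percentile of the array and averaged per probe. A RefSeq table of GRCm38.p6 gave names, by accession, to 67.87% of 39429 probes. Probes well above background (at least 0.5 of their spots) on both arrays of at least 1 group were kept, and the brightest stood for its gene. The test was that of limma 3.58.1 (R 4.3.3), by lmFit and eBayes (2 residual and 2.19 prior degrees of freedom), with Benjamini-Hochberg adjustment over all genes and a threshold of 0.05, and the fit was tested on simulated data. Intervals at 95% are from the same fit and unadjusted. Replicates 1 and 2 of both groups shared slides 1 and 2, per the file headers, and deviations from group means correlated at 0.14 between arrays of a slide. Alternatives were the slide as a block, scaling, background correction, filter, probe choice, outliers, replicate files, variance trend and leaving out arrays. Spike-in scaling and no scaling were added after seeing the data. Files of replicate 3 entered alternatives only.

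The members and lists were chosen with earlier results of these data known. Genes named are all members, listed complement genes that passed the test, and the 3 nearest in pattern to C3 and to C1qa, except that 1 of those nearest to C1qa and 1 complement gene that did not pass are not reported here. Complement genes named without passing, and markers named from the lists, were picked after their values were seen. Markers of dendritic cells, B cells, T and NK cells, mast cells and endothelium were read too. Of these, Ccr7 was called higher and Cd79a and Cd79b lower with WGP, and the others tested (5 genes) did not pass. Cd79a and Cd79b entered the test only through medium, and were well above background on 1 and 0 WGP arrays. For Cd79b only a bound is given, at least 5.04-fold lower with the limit used for Mbl2.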

Additional observations from a re-analysis of the deposited data

How the results depend on the processing

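The direction of C3, Cfb, C3ar1 and the C1q chains was kept in every alternative. C3 and Cfb kept their calls wherever tested (Cfb does not enter when every array must be above background). The Cfb calls are of measured levels, which in medium are below the range of measurement, and do not test its bound. In size C3 stayed between 2.71 and 3.46, while Cfb ranged from 0.73 to 4.77 and was lowest with both normexp settings (0.83 and 0.73). The count of changed members went from 4 to 2 with median scaling, with no filter on dim probes and with the replicate block, and was 2 without each of the 4 arrays. The 2 left were C3 and Cfb. With only probes well above background on every array, where Cfb does not enter, the count was 3 of 7 (1 higher and 2 lower). It was 6 with quantile normalization, both normexp settings and every deposited file as its own sample, and 5 with the intensity trend and with no scaling. The count of changed genes, 4439, was 1532 with no filter and 7452 with every deposited file as its own sample, where copies count as replicates, and ranged from 2258 to 3283 with 1 array left out (2853 without medium replicate 2, 2269 without WGP replicate 1 and 2258 without WGP replicate 2). For the other complement genes, 10 in number, these counts were 3, 18 and 6 to 9 (6 without either WGP array). C5ar1 turned to -0.065 with quantile normalization, -0.0076 with normexp and 75th percentile scaling, -0.0063 with normexp and quantile normalization and -0.33 with no scaling. Cfp turned to -0.078, -0.19, -0.15 and -0.39 in the same order, and ranged from -0.018 (without medium replicate 2) to 0.063 with 1 array left out. The scaling sets the zero by construction. The median change of all genes was 0.028, 0.19 with median scaling and -0.38 with no scaling, and genes higher with WGP made up 57.2%, 72.7% and 18.9% of those changed. The block changed the calls of C1qa and C1qc among members and gave 4086 changed genes (37.3%). Causes of the other shifts were not tested. Signals near background limit Cfb, Mbl2 and C1rb to bounds, which hold only for the lower limit taken.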
